A study of Mus musculus with 12 samples.

Results

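The comparison described here is the effect of 4EGI-1 on the RNA found in polysomes of mouse leukaemia cells, measured on 6 of the 12 arrays of the study. The cells are T-ALL clone #483, a T cell acute lymphoblastic leukaemia of C57BL6 background, so every value comes from 1 clone. The 6 arrays are 3 of polysomal RNA from cells given 100 µM 4EGI-1 and 3 of polysomal RNA from control cells, all after 2 h, and the remaining 6 hold cytoplasmic RNA of the same conditions. The control arrays are titled untreated, while the treatment text names the solvent DMSO. Polysome fractions of a sucrose gradient were pooled before the RNA was hybridised, so light and heavy polysomes were not separated. The cytoplasmic RNA, which the sample titles call total, was taken from the same cultures. All 13180 genes with a mean signal of at least 6.0 on the log2 scale were tested, out of 19937 with a named probe set.

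Translation of most mRNAs starts when the protein eIF4E binds the cap at the 5′ end of the mRNA and the scaffold protein eIF4G, which joins it to the helicase eIF4A and, through eIF3, to the small ribosomal subunit. 4EGI-1 is a small molecule that interferes with the contact between eIF4E and eIF4G. An mRNA carrying several ribosomes sediments with the polysomes, so its polysomal signal moves both with the amount of the mRNA in the cell and with the share of its copies that are being translated. Growth and survival mRNAs such as those of the D-type cyclins are often described as depending strongly on eIF4E, and blocked initiation is often accompanied by a stress response run by the transcription factor ATF4.

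The authors made the values with RMA, which scales arrays to a shared distribution, though the set of arrays scaled together is not given. Medians were between 6.40 and 6.44 in the polysomal arrays and reached 6.56 over all 12. A change is therefore relative to the other RNAs in the same polysomal pool, and a loss of polysomes as a whole is not measured. From pooled cells, a change in a few cells and a smaller change in all of them cannot be told apart. Within each polysomal group the arrays had pairwise correlations of 0.996 to 0.997, and no 2 arrays held the same values. The first principal component, with 77.5% of the variance, placed the control arrays on 1 side, at -18.5 to -16.5, and the 4EGI-1 arrays on the other, at up to 18.5. Of the 15 T lineage markers listed, 13 were above the signal filter, with control means from 6.60 to 12.35. Above the filter were also 2 of 6 B cell markers (control means up to 6.75), 2 of 7 myeloid (up to 6.71), 2 of 5 erythroid (up to 6.64), 4 of 6 stromal or endothelial (up to 8.67, for Pecam1) and 1 of 3 natural killer cell markers (6.35). None of the B cell, myeloid, erythroid and stromal or endothelial markers passed the threshold. The natural killer marker Nkg7 fell by 0.31 from this low signal.

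With 4EGI-1, 2346 genes rose in polysomal RNA, 17.8% of those tested, and 2685 fell, 20.4% (limma, adjusted p under 0.05). The genes that moved furthest upward included Prpf8 and Cltc, which encode proteins of the spliceosome and of the clathrin coat, and the growth-restraining arrestin gene Arrdc3. Those that moved furthest downward included the cyclin genes Ccnd1 and Ccnf and the thymosin gene Tmsb4x. Most changes were small, with a median size of 1.31-fold for increases and 1.25-fold for decreases. At least 1.5-fold changes were seen in 604 genes upward and 281 downward, and at least 2-fold changes in 119 upward and 24 downward. The median over all genes tested was a log2 change of -0.03. Of the 5031 genes called, 4953 had no overlap between the arrays of the 2 groups. A small p already favours genes whose groups are apart, so this count is not separate evidence for the calls. Some genes that were not called, such as Eif2b3 and Mthfd2, had no overlap either, and their share is not given here. Of the 604 larger increases, 141 started from a control mean under 7, where the signal is dim and the size of a change is uncertain.

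**Figure D1:**
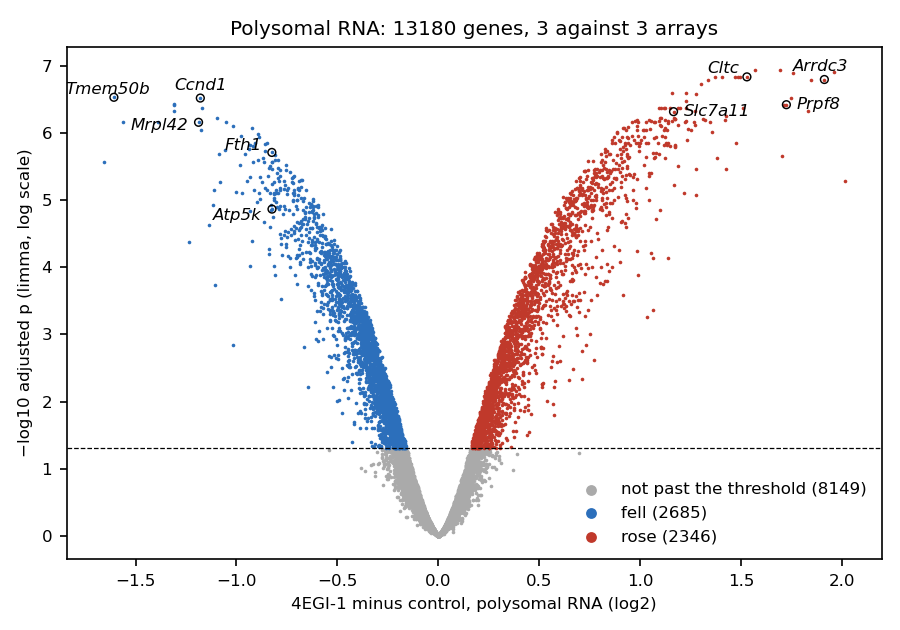
Change in polysomal RNA (4EGI-1 minus control, log2, horizontal axis) of 13180 genes against minus log10 of the adjusted p from limma (vertical axis), 3 arrays per group. Each point is a gene, red where it rose (2346), blue where it fell (2685) and grey where it did not pass 0.05 (8149, under the dashed line). The right arm reaches further than the left, with 119 genes at 2-fold or more against 24.

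The genes described first are those with the largest changes whose group means were both at least 7. Errors beside a change are standard errors with 3 arrays per group, array values are given in the order 1 to 3, and the adjusted p-values are limma's over all genes tested. Prpf8, the central scaffold of the spliceosome's catalytic core, read 9.70, 9.72 and 9.41 in the control arrays and 11.38, 11.19 and 11.42 in the 4EGI-1 arrays. All 3 treated arrays lay more than 1 log2 unit above every control array, and the change was 1.72 ± 0.09, or 3.31-fold (adjusted p = 3.8e-07). In cytoplasmic RNA the change of Prpf8 was 0.05 ± 0.11. Cltc, the clathrin heavy chain that forms the cage of endocytic vesicles, read 10.08, 10.30 and 10.25 in control and 11.74, 11.72 and 11.76 with 4EGI-1. The treated values were almost equal to each other and far from the control values, a change of 1.53 ± 0.07 (adjusted p = 1.46e-07) beside 0.04 ± 0.10 in cytoplasmic RNA.

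The nucleolar gene Mybbp1a, whose product binds MYB and takes part in ribosomal RNA transcription, read 8.19, 8.29 and 8.29 in control and 9.72, 9.67 and 9.83 with 4EGI-1, a change of 1.48 ± 0.07. Snrnp200, the helicase that unwinds the U4 and U6 RNAs in the spliceosome, read 8.63, 8.77 and 8.67 in control and 10.14, 10.07 and 10.08 with 4EGI-1, a change of 1.41 ± 0.06. Pole, the catalytic subunit of the leading-strand DNA polymerase, read 8.67, 8.66 and 8.68 in control and 10.09, 9.97 and 10.07 with 4EGI-1, a change of 1.37 ± 0.06. The groups stood apart in all 3 genes, and their cytoplasmic changes were 0.06 ± 0.18, 0.17 ± 0.10 and 0.25 ± 0.13. Lars, the enzyme that loads leucine onto its tRNA, rose by 1.47 ± 0.06 in polysomal RNA, with a cytoplasmic change of 0.40 ± 0.10.

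A second kind of increase came with a cytoplasmic increase of 0.98 or more. Arrdc3, an adaptor that takes receptors to degradation, read 8.90, 8.84 and 9.20 in control and 10.87, 10.88 and 10.92 with 4EGI-1. Control array 3 was the highest of its group and still far below the treated arrays, and the change was 1.91 ± 0.09 in polysomal against 2.24 ± 0.09 in cytoplasmic RNA. Mt2, a metallothionein that buffers zinc and copper, read 9.33, 9.59 and 9.69 in control and 11.23, 11.35 and 11.17 with 4EGI-1, a change of 1.71 ± 0.09 against 1.99 ± 0.20 in cytoplasmic RNA. The zinc finger genes Zc3h6 (1.69 ± 0.06) and Zfp759 (1.48 ± 0.10) and the mitochondrial peptidase gene Xpnpep3 (1.49 ± 0.07) had cytoplasmic changes of 1.47 ± 0.14, 0.98 ± 0.12 and 1.11 ± 0.15. The histone H2B gene H2bc4 rose by 1.96 ± 0.08, beside 2.33 ± 0.17 in cytoplasmic RNA, and belongs to a family of near-identical copies that its probe set may not separate.

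Among the decreases, Tmem50b, a membrane protein gene, read 10.58, 10.79 and 10.69 in control and 9.13, 9.18 and 8.93 with 4EGI-1, a change of -1.61 ± 0.08 (adjusted p = 2.95e-07). Ccnd1, the cyclin that drives exit from the G1 phase, read 10.68, 10.61 and 10.58 in control and 9.45, 9.41 and 9.48 with 4EGI-1, a change of -1.18 ± 0.06 (adjusted p = 3.03e-07). In both genes the groups were separated by over 1 log2 unit, and the cytoplasmic changes were -1.32 ± 0.09 and -1.36 ± 0.14. The LIM-domain gene Crip1 (-1.56 ± 0.10), the cyclin F gene Ccnf (-1.39 ± 0.08), the CDK-binding gene Cks2 (-1.31 ± 0.07), the proton-sensing receptor gene Gpr65 (-1.17 ± 0.07), the mitophagy receptor gene Bnip3 (-1.14 ± 0.12), Crtap (-1.18 ± 0.08), Tmem229b (-1.12 ± 0.11) and the galectin-binding gene Lgals3bp (-1.11 ± 0.10) also fell. Their cytoplasmic changes ran from -1.29 in Ccnf to -0.80 in Bnip3.

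In Mrpl42 and Tmsb4x the polysomal decrease stood beside a smaller cytoplasmic value. Mrpl42, a protein of the mitochondrial ribosome, read 10.45, 10.33 and 10.47 in control and 9.35, 9.22 and 9.12 with 4EGI-1. Its change was -1.19 ± 0.07 in polysomal and -0.38 ± 0.11 in cytoplasmic RNA. Tmsb4x, which binds single actin molecules, read 8.29, 8.42 and 8.61 in control and 7.35, 7.45 and 6.81 with 4EGI-1, a change of -1.24 ± 0.14 against -0.50 ± 0.10. Array 3 was the highest of the control and the lowest of the treated arrays in this gene, and the groups did not overlap.

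**Figure D2:**
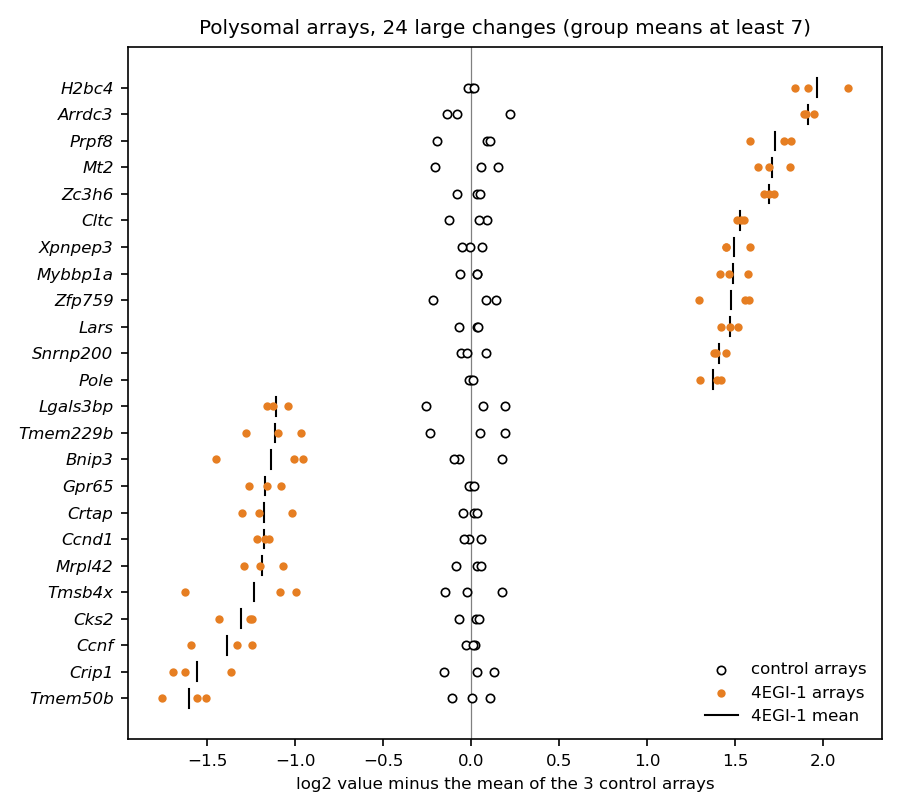
Polysomal log2 values of the 24 genes with the largest changes among those with both group means at least 7 (12 in each direction, placeholder symbols left out), each given as the value minus the mean of the 3 control arrays (horizontal axis), with open circles for control arrays, filled circles for 4EGI-1 arrays and a bar at the 4EGI-1 mean. The treated arrays lie apart from the control arrays in every gene shown, which was a condition for choosing them. The widest treated spread is in Tmsb4x.

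The test of the difference between the polysomal and the cytoplasmic change, fitted over all 12 arrays, called 305 genes higher in polysomal RNA than their cytoplasmic change (2.31% of those tested) and 80 lower (0.607%). Of the 2346 genes that rose in polysomal RNA, 289 were among the 305, and of the 2685 that fell, 63 were among the 80. Of the 604 larger increases 191 passed this test, and of the 281 larger decreases 20. Among the 12 largest increases described above it called Prpf8, Cltc, Mybbp1a, Lars, Snrnp200 and Pole, and among the 12 largest decreases it called Mrpl42. A gene that did not pass may still differ between the fractions, and the fit ignored that both fractions came from the same cultures. The total of 385 was 2838 with array quality weights and 242 without the filter on dim genes. It was 670 without cytoplasmic control array 2 and 616 without cytoplasmic 4EGI-1 array 3. It was 253 or 228 without array 1 of the cytoplasmic control or 4EGI-1 group, 211 or 216 without polysomal control array 1 or 2, and 208 or 200 without polysomal 4EGI-1 array 1 or 3.

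**Figure D3:**
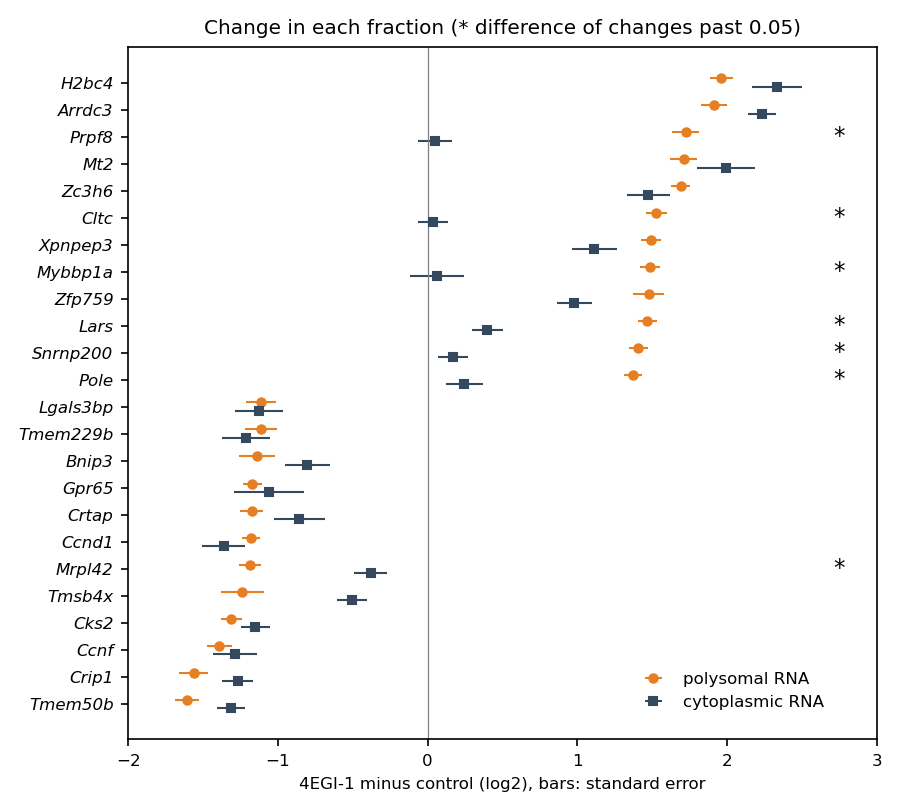
Change with 4EGI-1 (log2, horizontal axis) in polysomal RNA (circles) and cytoplasmic RNA (squares) for the same 24 genes, with bars of 1 standard error and an asterisk where the difference of the changes had an adjusted p under 0.05. For Prpf8, Cltc and Mybbp1a the squares sit at 0.04 to 0.06, while for Arrdc3, Mt2 and most decreases both symbols lie close together.

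Genes known to be induced by ATF4, the transcription factor of the amino acid and endoplasmic reticulum stress response, mostly rose in polysomal RNA. Of 35 tested, 23 rose (65.7%, against 17.8% of all genes) and 2 fell, with a median change of 0.28 against -0.03 over all genes and 0.30 for the same list in cytoplasmic RNA. ATF4 binds, with a C/EBP partner, to composite elements of the form TGATGNAA. This motif was searched on both strands in the 250 bases before each annotated start, and was present in 2.37% of the 10463 tested genes that have a RefSeq promoter entry (GRCm38.p6) and in 23.3% of the 30 such genes on the ATF4 list. The 7 genes of the list with a match are shown, because 5 of them rose and Asns and Jdp2 did not pass the threshold. Capitals mark the match, which reads as the reverse complement where it lies on the opposite strand, and each stretch is given 5′ to 3′ on the gene's strand.
Slc7a11 (chr3:50443646-50443705, minus strand): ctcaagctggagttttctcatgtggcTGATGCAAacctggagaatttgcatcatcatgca
Herpud1 (chr8:94386291-94386350, plus strand): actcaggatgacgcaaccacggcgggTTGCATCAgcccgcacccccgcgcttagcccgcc
Chac1 (chr2:119351023-119351082, plus strand): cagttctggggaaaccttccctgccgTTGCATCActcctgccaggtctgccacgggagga
Nupr1 (chr7:126625547-126625606, minus strand): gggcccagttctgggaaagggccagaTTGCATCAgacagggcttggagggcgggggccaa
Pck2 (chr14:55540137-55540196, plus strand): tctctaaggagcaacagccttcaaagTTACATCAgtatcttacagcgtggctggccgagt
Jdp2 (chr12:85599357-85599415, plus strand): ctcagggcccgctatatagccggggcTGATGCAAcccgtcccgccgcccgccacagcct
Asns (chr6:7693210-7693258, minus strand): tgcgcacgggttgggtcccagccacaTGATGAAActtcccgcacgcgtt
The stretch of Slc7a11 also holds the motif on the opposite strand, as ttgcatca in lower case. A match is a description of these letters and not a measured binding site.

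Slc7a11, the cystine transporter, read 10.56, 10.46 and 10.61 in control and 11.79, 11.67 and 11.67 with 4EGI-1, a change of 1.17 ± 0.07 (adjusted p = 4.82e-07). Herpud1, which helps to remove misfolded proteins from the endoplasmic reticulum, read 8.88, 8.74 and 8.80 in control and 9.90, 9.86 and 9.97 with 4EGI-1, a change of 1.10 ± 0.06. Chac1, a glutathione-degrading enzyme, read 8.43, 8.47 and 8.60 in control and 9.58, 9.43 and 9.49 with 4EGI-1, a change of 1.00 ± 0.07. These 3 genes were higher in every treated array by close to 1 log2 unit, and their cytoplasmic changes were 1.12, 0.91 and 1.34. Nupr1, a small chromatin-associated stress protein, rose by 0.85 ± 0.06, and Pck2, the mitochondrial PEP carboxykinase, by 0.28 ± 0.07 (adjusted p = 0.00556, and 0.0676 in the fit of all 12 arrays). Asns, asparagine synthetase, read 12.05, 11.92 and 11.95 in control and 12.05, 12.02 and 12.03 with 4EGI-1. These values overlap, with a change of 0.06 ± 0.06 (adjusted p = 0.474). Jdp2, a repressor of the AP-1 family, also overlapped, from 6.87 to 6.99 in control and from 6.96 to 7.13 with 4EGI-1.

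Atf4 itself read 10.18, 10.22 and 10.20 in control and 10.71, 10.51 and 10.62 with 4EGI-1, a change of 0.41 ± 0.07 (adjusted p = 0.000467) beside 0.22 in cytoplasmic RNA. Its target Ddit3, which encodes the pro-apoptotic factor CHOP, read 7.81, 7.96 and 7.82 in control and 8.72, 8.78 and 8.68 with 4EGI-1, a change of 0.86 ± 0.07 beside 0.87 in cytoplasmic RNA. Both genes were higher in all treated arrays than in any control array. Among the amino acid transporter genes on the list, Slc3a2, the shared heavy chain of several transporters, rose by 1.04 ± 0.06, the cationic amino acid transporters Slc7a3 by 0.94 ± 0.06 and Slc7a1 by 0.74, and the neutral amino acid transporter Slc1a4 by 1.05. Slc7a5, a light chain that pairs with Slc3a2, had a change of 0.03 (adjusted p = 0.705). The 3 enzymes of serine synthesis on the list did not pass the threshold, with changes of -0.13 in Phgdh (adjusted p = 0.149), 0.01 in Psat1 (0.963) and -0.06 in Psph (0.472). Of the mitochondrial folate enzymes, Aldh1l2 rose by 0.48 and Shmt2 by 0.23 (adjusted p = 0.0706 without control array 2 and 0.212 in the fit of all 12 arrays), while Mthfd2 had a change of -0.08 (adjusted p = 0.335). The 2 members that fell were Xpot, a tRNA exporter (-0.36 ± 0.07), and the stress factor gene Atf5 (-0.20 ± 0.06), and neither passed in a fit of all 12 arrays (adjusted p = 0.0538 and 0.0634). The call of Atf5 also ended without control array 2 or 3 or 4EGI-1 array 2 or 3 (adjusted p from 0.0526 to 0.0826).

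The cyclic AMP response element TGACGTCA, bound by the CREB and ATF families, was searched in the same windows and cannot match the same 8 bases as TGATGNAA. It was present in 2.9% of all tested genes with an entry, in 3.84% of genes with an increase and 2.55% of genes with a decrease, and in 5.54% and 1.68% where the change was at least 1.5-fold. The 3 genes described here with such a match and an increase of at least 0.9 are shown, with the element in capitals, and Nup133 holds a further match upstream.
Xpnpep3 (chr15:81400048-81400107, plus strand): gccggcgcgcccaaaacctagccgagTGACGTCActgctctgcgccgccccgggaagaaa
Ap2b1 (chr11:83302624-83302683, plus strand): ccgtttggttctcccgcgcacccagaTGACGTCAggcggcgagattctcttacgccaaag
Nup133 (chr8:123949299-123949358, minus strand): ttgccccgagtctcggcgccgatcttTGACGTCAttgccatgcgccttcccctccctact
The cytoplasmic change was 1.11 in Xpnpep3, 0.04 in Ap2b1 and -0.03 in Nup133, so these 3 genes did not share 1 pattern across the fractions. Other genes with this element were not compared in this way.

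A list of genes for very large proteins, among them signalling kinases, HECT-type ubiquitin ligases, lipid transfer proteins, scaffolds and cytoskeletal linkers, had the highest share of increases among the lists examined. Of 31 tested, 24 rose (77.4%, against 17.8% of all genes) and 1 fell, with a median change of 0.43 against 0.20 in cytoplasmic RNA. Mtor, the nutrient-sensing kinase that controls cap-dependent translation, read 7.81, 7.74 and 7.74 in control and 8.62, 8.46 and 8.62 with 4EGI-1, a change of 0.80 ± 0.07. Atm, the kinase that signals DNA breaks, read 8.88, 9.00 and 9.01 in control and 9.83, 9.78 and 9.65 with 4EGI-1, a change of 0.79 ± 0.07. The groups were apart in both, and the cytoplasmic changes were -0.06 and -0.13. The ubiquitin ligase gene Trip12 (0.73 ± 0.06) and the lipid transfer gene Vps13b (0.88 ± 0.07) rose as well. The other 6 did not pass the threshold, among them the cytoskeletal linker gene Plec, with a change of -0.10 (adjusted p = 0.332).

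Several multi-subunit machines held both genes that rose and genes that fell. Protein size, where mentioned, is general background, and protein length was not analysed. Nuclear pore genes rose in 13 of 28 cases (46.4%, against 17.8% of all genes) and fell in 2 (7.14%, against 20.4%), with a median of 0.18. Nup205, a scaffold of the inner ring, read 9.21, 9.33 and 9.37 in control and 10.46, 10.40 and 10.34 with 4EGI-1, a change of 1.10 ± 0.07. The related scaffold Nup188 rose by 1.01 ± 0.07 and the outer-ring gene Nup133 by 0.94 ± 0.07, while the small outer-ring subunit Nup37 fell from 9.44, 9.31 and 9.24 to 8.62, 8.64 and 8.77, a change of -0.65 ± 0.07. The cytoplasmic changes of the 3 genes that rose were between -0.03 and 0.05, and that of Nup37 was -0.21. Nup210, a large membrane-spanning pore protein, did not pass the threshold (-0.10, adjusted p = 0.267).

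Among U5 and tri-snRNP proteins of the spliceosome 7 of 17 rose (41.2%) and 6 fell (35.3%), with a median of 0.08, beside 17.8% and 20.4% of all genes. Prpf8 and Snrnp200 rose most, followed by Prpf6 (0.99 ± 0.06), which bridges the U5 and U4/U6 particles. Among SF3 and Sm or Lsm proteins 4 of 28 rose (14.3%) and 17 fell (60.7%), with a median of -0.29. Sf3b1, the branch-site factor that is often mutated in blood cancers, read 11.15, 11.25 and 11.22 in control and 12.02, 11.99 and 12.02 with 4EGI-1. Snrpe, a protein of the small Sm ring, read 10.98, 10.96 and 11.14 in control and 10.37, 10.45 and 10.29 with 4EGI-1. Their changes were 0.81 ± 0.06 and -0.66 ± 0.07, in opposite directions with no overlap in either. Sf3b3 (0.76 ± 0.07) and Sf3a1 (0.71 ± 0.06) moved with Sf3b1, and Lsm7 (-0.78 ± 0.09) and Snrpd1 (-0.52 ± 0.06) with Snrpe.

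Coat proteins of vesicles rose in 12 of 27 cases (44.4%, against 17.8% of all genes) and fell in 8 (29.6%, against 20.4%), with a median of -0.04. Besides Cltc, Ap2b1 of the endocytic adaptor (1.13 ± 0.07) and Copa of the COPI coat (0.98 ± 0.06) rose, and the small subunits Ap1s1 (-0.45 ± 0.07) and Copz1 (-0.37 ± 0.06) fell. The large adaptor subunits Ap2a1 and Ap2a2 had lower values with 4EGI-1 as well, -0.20 (adjusted p = 0.0162, 0.0539 without 4EGI-1 array 1 and 0.0822 in the fit of all 12 arrays) and -0.27 (adjusted p = 0.00456, and 0.103 in that fit). Ribosome biogenesis genes rose in 22 of 64 cases (34.4%) and fell in 6 (9.38%), with a median of 0.02. Heatr1, a scaffold of the small-subunit processome, read 9.41, 9.56 and 9.43 in control and 10.69, 10.68 and 10.72 with 4EGI-1, and Polr1a, the largest subunit of RNA polymerase I, rose by 1.10 ± 0.06. Nop10, a very small protein of the particles that make pseudouridine, read 11.84, 11.90 and 11.94 in control and 11.06, 11.15 and 11.05 with 4EGI-1. The change of Heatr1 was 1.23 ± 0.06 and that of Nop10 was -0.81 ± 0.06, with cytoplasmic changes of 0.19 and -0.36.

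Chromatin remodellers and methyltransferases rose in 17 of 32 cases (53.1%, against 17.8% of all genes) and fell in 2 (6.25%, against 20.4%), with a median of 0.22. Smarca4, the ATPase of the BAF remodelling complex, read 9.89, 10.05 and 10.06 in control and 10.99, 10.90 and 10.96 with 4EGI-1, a change of 0.95 ± 0.07. The maintenance DNA methyltransferase Dnmt1 rose by 0.92 ± 0.06 and the NuRD helicase Chd4 by 0.81 ± 0.06, with cytoplasmic changes of 0.12 and -0.09, and -0.11 for Smarca4. Chd2 rose by 1.12 ± 0.06 with a cytoplasmic change of 1.04. Setd1b, a histone H3 methyltransferase, fell by 0.54 on the log2 scale.

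Cytosolic tRNA synthetases rose in 9 of 18 cases (50.0%, against 17.8% of all genes) and none fell, with a median of 0.18. After Lars came Eprs, which loads both glutamate and proline and read 10.66, 10.65 and 10.64 in control and 11.82, 11.78 and 11.83 with 4EGI-1, a change of 1.16 ± 0.06 beside 0.21 in cytoplasmic RNA. Mitochondrial tRNA synthetases rose in 6 of 16 cases (37.5%) and fell in 2 (12.5%), with a median of 0.13 and no change beyond 1.5-fold. Nucleotide synthesis genes rose in 7 of 24 cases (29.2%) and fell in 5 (20.8%, near the 20.4% of all genes), with a median of -0.03. Among those that rose were Cad, the multifunctional enzyme that starts pyrimidine synthesis (1.02 ± 0.07), Mthfd1 of folate metabolism (1.07 ± 0.07) and Pfas of purine synthesis (0.70 ± 0.07), with cytoplasmic changes of -0.25, -0.19 and -0.15. The small salvage enzyme Aprt fell by 0.38 on the log2 scale.

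**Figure D4:**
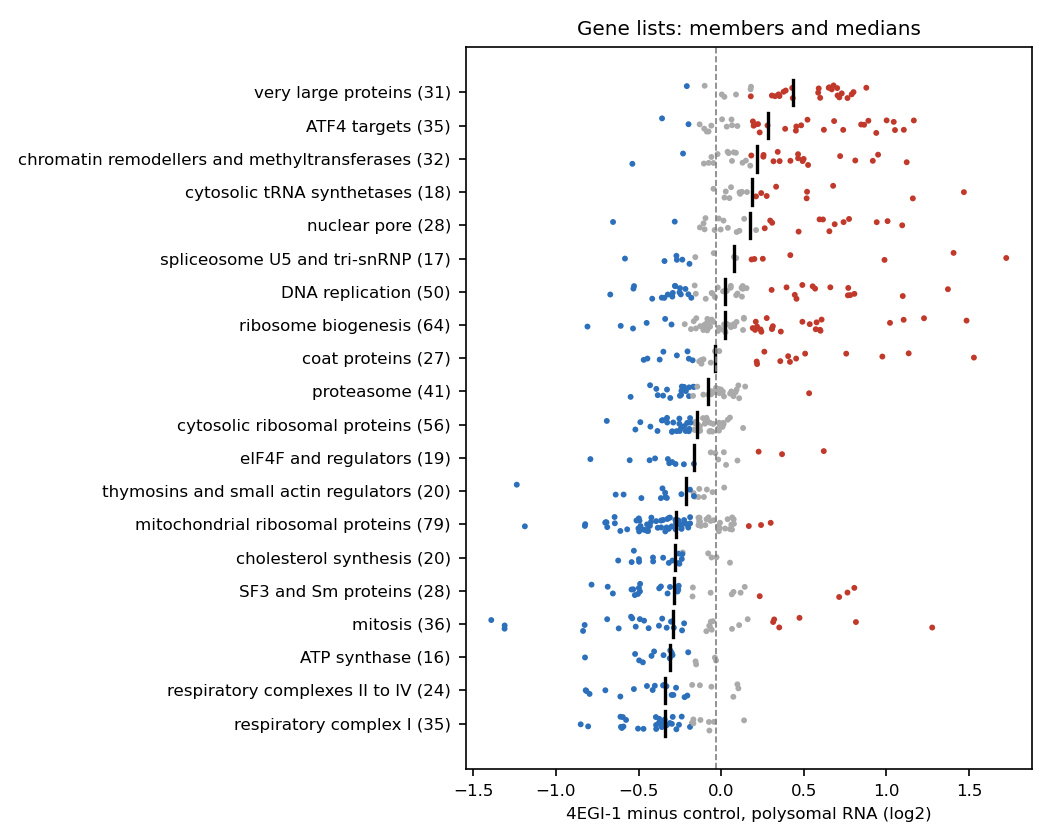
Change in polysomal RNA (4EGI-1 minus control, log2, horizontal axis) of the tested members of 20 gene lists, ordered by their median (black bar), with the number tested in parentheses. Points are genes, red where they rose, blue where they fell and grey where they did not pass 0.05, and the dashed line is the median of all genes, -0.03. The medians run from -0.34 for respiratory complex I to 0.43 for very large proteins, and several lists hold both strong increases and decreases.

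Subunits of the oxidative phosphorylation machinery fell together. In respiratory complex I, 27 of 35 tested genes fell (77.1%, against 20.4% of all genes) and none rose, with a median change of -0.34. In complexes II to IV 18 of 24 fell and in the ATP synthase 12 of 16, 75% in both, with medians of -0.34 and -0.31 and none that rose. The median cytoplasmic changes of these 3 lists were -0.09, -0.16 and -0.14. The test of the difference called 3, 0 and 1 of their genes lower in polysomal RNA and none higher. Over all genes 0.607% were called lower and 2.31% higher. Atp5k, a small membrane subunit of the ATP synthase, read 11.04, 11.23 and 11.25 in control and 10.30, 10.48 and 10.25 with 4EGI-1, a change of -0.82 ± 0.08. Uqcrh, the hinge protein of complex III, read 12.27, 12.39 and 12.34 in control and 11.56, 11.54 and 11.52 with 4EGI-1, a change of -0.80 ± 0.06. Both were lower in every treated array than in any control array. Ndufb3 (-0.85 ± 0.06) and Ndufa5 (-0.80 ± 0.07) led complex I, and Sdhd (-0.82 ± 0.07), a membrane anchor, complex II. The large catalytic subunits Ndufs1 and Sdha had changes of 0.14 and 0.10, with adjusted p-values of 0.0965 and 0.248.

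Mitochondrial ribosomal protein genes fell in 53 of 79 cases (67.1%, against 20.4% of all genes) and rose in 3, with a median of -0.28 in polysomal and -0.11 in cytoplasmic RNA. The test of the difference called 4 of the 79 lower in polysomal RNA and none higher, beside 0.607% and 2.31% of all genes. After Mrpl42 came Mrpl51, which read 11.00, 11.01 and 10.99 in control and 10.19, 10.25 and 10.08 with 4EGI-1, and Mrps21 (-0.82 ± 0.07). Cytosolic ribosomal protein genes fell in 24 of 56 cases (42.9%) and rose in none, with a median of -0.15, and their probe sets can share signal with processed copies. Rps28 read 11.19, 11.34 and 11.40 in control and 10.57, 10.73 and 10.56 with 4EGI-1, a change of -0.69 ± 0.08. Rplp0, a protein of the ribosomal stalk, had a change of 0.13 (adjusted p = 0.109). A start resembling the TOP element of ribosomal protein mRNAs, a C followed by 4 pyrimidines at the annotated first base, was found in 22.2% of the 45 ribosomal protein genes with a promoter entry and in 2.92% of all. Its share was 2.79% among increases and 2.28% among decreases. Only 10 of the 45 ribosomal protein genes matched, so the search can miss TOP mRNAs and cannot show whether they moved.

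Proteasome genes fell in 17 of 41 cases (41.5%, against 20.4% of all genes), with a median of -0.08, and 1 rose. The 1 that rose was Psmd1, the largest base subunit of the regulatory cap, at 11.16, 11.18 and 11.22 in control and 11.71, 11.71 and 11.73 with 4EGI-1, a change of 0.53 ± 0.06. Small regulators of actin fell in 12 of 20 cases (60%) and none rose, with a median of -0.21 beside -0.18 in cytoplasmic RNA. The Arp2/3 subunit genes Arpc4 (-0.64 ± 0.07) and Arpc5 (-0.59 ± 0.07) and the thymosin Tmsb10 (-0.48 ± 0.08) fell after Tmsb4x, while Actb, encoding actin itself, had a change of 0.02 (adjusted p = 0.847). Cholesterol synthesis genes fell in 15 of 20 cases (75%) and none rose. Their median was -0.28 in polysomal and -0.29 in cytoplasmic RNA, and Sqle, which oxidises squalene, fell by 0.62 on the log2 scale in polysomal RNA, beside -0.62 in cytoplasmic RNA.

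The ferritin heavy chain gene Fth1, which stores iron and whose translation is known to be held back by iron-regulatory proteins, read 11.36, 11.31 and 11.38 in control and 10.48, 10.58 and 10.52 with 4EGI-1. Every treated array was below every control array, with a change of -0.82 ± 0.06 (adjusted p = 1.95e-06) beside -0.09 ± 0.11 in cytoplasmic RNA. Fth1 had the largest decrease among the 22 NRF2 targets, of which 6 fell (27.3%, against 20.4% of all genes) and 3 rose (13.6%, against 17.8%), with a median of -0.10. The glutathione reductase gene Gsr fell by 0.32. The 3 that rose were Slc7a11, the transketolase gene Tkt (0.49 ± 0.06) and the haem oxygenase gene Hmox1 (0.37 ± 0.08, adjusted p = 0.00381, and 0.0555 in the fit of all 12 arrays).

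Genes of the cell cycle moved in both directions. Mitosis genes fell in 21 of 36 cases (58.3%, against 20.4% of all genes) and rose in 6 (16.7%, against 17.8%), with a median of -0.29 in polysomal and -0.36 in cytoplasmic RNA. Besides Cks2 and Ccnf, the mitotic kinase gene Aurka fell by 0.84, and the spindle gene Fam83d read 7.98, 7.84 and 7.86 in control and 6.51, 6.57 and 6.68 with 4EGI-1. Ckap5, a very large microtubule polymerase, read 9.48, 9.57 and 9.50 in control and 10.82, 10.72 and 10.85 with 4EGI-1. The change of Ckap5 was 1.28 ± 0.06 with 0.10 in cytoplasmic RNA, and that of Fam83d was -1.31 ± 0.07 with -1.16. The topoisomerase gene Top2a rose by 0.82 ± 0.07, with a cytoplasmic change of -0.09.

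DNA replication genes rose in 14 of 50 cases (28.0%, against 17.8% of all genes) and fell in 17 (34%, against 20.4%), with a median of 0.02. Pola1, the catalytic subunit of DNA polymerase alpha, rose by 1.10 ± 0.06, the DNA ligase Lig1 by 0.77 ± 0.06 and the large ribonucleotide reductase subunit Rrm1 by 0.81 ± 0.06. The small single-strand binding subunit Rpa3 fell from 10.86, 10.93 and 10.95 to 10.26, 10.30 and 10.16, and the cyclin E gene Ccne1 fell by 0.53. Of 12 histone genes 6 rose (50.0%) and 2 fell (16.7%), with a median of 0.15. The linker histone gene H1f2, one of several similar copies, rose by 1.12 ± 0.08 with a cytoplasmic change of 0.03, and H2ax, which marks DNA breaks, fell by 0.92, where cytoplasmic RNA gave -1.06.

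The proteins of the cap-binding complex and their regulators fell in 10 of 19 cases (52.6%, against 20.4% of all genes) and rose in 3 (15.8%, against 17.8%), with a median of -0.17. Eif4e, the cap-binding protein whose contact 4EGI-1 blocks, read 11.88, 11.75 and 11.81 in control and 11.53, 11.55 and 11.46 with 4EGI-1, a change of -0.30 ± 0.06 (adjusted p = 0.00285). Eif4ebp1, the inhibitor that competes with eIF4G for eIF4E and a known ATF4 target, read 8.47, 8.39 and 8.54 in control and 8.83, 8.83 and 8.84 with 4EGI-1. Its change was 0.37 ± 0.06 (adjusted p = 0.000644), opposite to that of Eif4e and with no overlap of the arrays in either. Eif4g3, a paralogue of the scaffold, rose by 0.62 ± 0.07 with a cytoplasmic change of 0.00, and the cap-binding homologue Eif4e2, which represses translation, fell by 0.79.

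Of 11 eIF3 subunit genes 3 rose (27.3%, against 17.8% of all genes) and 1 fell (9.09%, against 20.4%), with a median of 0.04. Those that rose were Eif3c (0.76 ± 0.07), Eif3a (0.58 ± 0.06) and Eif3d (0.31 ± 0.06), which include the core scaffold of the factor. The other initiation factors fell in 6 of 18 cases (33.3%) and rose in 1, the subunit-joining GTPase Eif5b, which read 9.98, 10.13 and 10.08 in control and 11.04, 10.82 and 10.98 with 4EGI-1. Its change was 0.88 ± 0.07, and the start-site factor Eif1b, a very small protein, fell by 0.57. Elongation and termination factors fell in 6 of 11 cases (54.5%) and rose in 1, the translocase Eef2, with 11.72, 11.62 and 11.71 in control and 12.26, 12.22 and 12.31 with 4EGI-1. Eef1a1, which delivers tRNAs to the ribosome, had a change of 0.01 (adjusted p = 0.944).

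Among 25 mRNAs described as sensitive to eIF4E, 13 fell (52.0%, against 20.4% of all genes) and 5 rose, with a median of -0.20 in polysomal and -0.12 in cytoplasmic RNA. None of the 25 passed the test of the difference between the fractions. That test called only 2.31% of all genes higher and 0.607% lower, so no call among 25 says little about the list. The median difference was -0.08, against -0.01 over all genes. All 3 D-type cyclin genes fell, Ccnd1 as given above, Ccnd2 by 0.78 (adjusted p = 4.49e-05) and Ccnd3 by 0.45 (adjusted p = 0.000928), with cytoplasmic changes of -1.36, -0.34 and -0.60. Odc1, which makes the polyamine putrescine, fell by 0.33 (adjusted p = 0.00187) beside 0.04 in cytoplasmic RNA, and the apoptosis inhibitor Birc5 fell by 0.62. Myc, the transcription factor that drives growth in T-ALL, read 11.80, 11.69 and 11.82 in control and 12.00, 11.94 and 12.02 with 4EGI-1. The treated arrays were all above the control arrays by a small margin, with a change of 0.22 ± 0.06 (adjusted p = 0.0174). That call ended without control array 2 (adjusted p = 0.0712), without 4EGI-1 array 3 (0.0596) and in the fit of all 12 arrays (0.268). Vegfa, an angiogenic growth factor, rose by 0.65 ± 0.07 in polysomal and 0.66 in cytoplasmic RNA.

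Of 29 Notch and MYC pathway and T-ALL genes 9 rose (31.0%, against 17.8% of all genes) and 5 fell (17.2%, near the 20.4% of all genes), with a median of 0.01. Notch1, the receptor most often activated in T-ALL, rose by 0.32 ± 0.06 (adjusted p = 0.00211, and 0.125 in the fit of all 12 arrays), with a cytoplasmic change of -0.21. Its direct targets did not move alike: the repressor gene Hes1 read 7.70, 7.39 and 7.80 in control and 8.59, 8.62 and 8.61 with 4EGI-1, and the feedback inhibitor gene Nrarp read 7.50, 7.70 and 7.67 in control and 6.91, 6.66 and 6.82 with 4EGI-1. The changes were 0.98 ± 0.09 and -0.83 ± 0.08, and the cytoplasmic changes 0.73 and -0.76. Of the 13 T lineage markers above the filter 7 fell (53.8%) and 1 rose, with a median of -0.19. The T cell receptor chain gene Cd3e fell by 0.41 and Cd3d by 0.40.

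In the BCL2 family 5 of 15 genes fell (33.3%, against 20.4% of all genes) and 2 rose (13.3%, against 17.8%), with a median of -0.12. Bcl2l11, which encodes the pro-apoptotic BIM, read 8.52, 8.68 and 8.77 in control and 9.44, 9.23 and 9.32 with 4EGI-1, a change of 0.67 ± 0.08 beside 0.75 in cytoplasmic RNA. The survival genes Mcl1 (-0.20 ± 0.09, adjusted p = 0.0908) and Bcl2 (-0.05 ± 0.07, adjusted p = 0.629) did not pass the threshold, and the pro-apoptotic genes Bid and Bak1 fell by 0.56 and 0.40, the latter with an adjusted p of 0.0925 in the fit of all 12 arrays. FOXO and quiescence genes fell in 10 of 25 cases (40%) and rose in 3 (12.0%), with a median of -0.04. Arrdc3 led the 3, and Sesn1 (-0.68 ± 0.08) and Trib2 (-0.61 ± 0.06) led the 10.

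Of 18 p53 targets 6 rose (33.3%, against 17.8% of all genes) and 8 fell (44.4%, against 20.4%), with a median of -0.05. Gadd45a, a growth arrest gene also induced by ATF4, read 9.57, 9.53 and 9.72 in control and 10.85, 10.72 and 10.78 with 4EGI-1, a change of 1.18 ± 0.07, while Trp53inp1 fell by 0.72 and Ccng1 by 0.63. Immediate early genes rose in 4 of 22 cases (18.2%, near the share of all genes) and fell in 6 (27.3%), with a median of -0.04. Jun, a subunit of the AP-1 factor, read 7.37, 6.92 and 7.38 in control and 8.58, 8.34 and 8.59 with 4EGI-1, lower in array 2 of both groups, and its change was 1.28 ± 0.12 beside 1.11 in cytoplasmic RNA.

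Heat shock genes rose in 3 of 19 cases (15.8%, near the 17.8% of all genes) and fell in 1, with a median of 0.01. The 1 that fell was Dnajb1, a co-chaperone, by 0.81, and Hsph1 rose by 0.53 ± 0.07. Endoplasmic reticulum chaperones and stress sensors rose in 5 of 34 cases (14.7%) and fell in 7 (20.6%), with a median of -0.05, shares near the 17.8% and 20.4% of all genes. The sensors Eif2ak3, known as PERK (0.77 ± 0.06), and Atf6 (0.59 ± 0.07) rose, and the small translocon subunit Sec61b fell by 0.77. Glycolysis genes rose in 2 of 17 cases (11.8%) and fell in 4 (23.5%, near that of all genes), with a median of -0.13, and hexokinase Hk2 rose by 0.76 ± 0.06 with a cytoplasmic change of 0.11. Of 6 host genes of small nucleolar RNAs 4 rose (66.7%), with a median of 0.42. Snhg16 read 6.99, 6.47 and 7.36 in control and 9.13, 8.83 and 8.91 with 4EGI-1, a change of 2.01 ± 0.17 from a dim and uneven control signal. Snhg5 read 10.20, 10.22 and 10.18 in control and 11.40, 11.50 and 11.39 with 4EGI-1. Its change was 1.23 ± 0.06 in polysomal and 1.31 in cytoplasmic RNA.

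Genes that rose covered more of the genome than genes that fell. The genomic span of a gene, from its first to its last annotated base with introns included, had a median of 33.3 kb in the 2266 protein-coding genes that rose, 17.7 kb in the 2598 that fell and 19.1 kb in those not called. In the 304 protein-coding genes called higher in polysomal RNA than their cytoplasmic change it was 54.0 kb, and in the 77 called lower 15.4 kb. Of 1785 genes under 5 kb, 7.84% rose and 25.4% fell, whereas of 472 genes of 200 kb or more 26.9% rose and 8.69% fell. The median change went from -0.08 to 0.03 between these groups in polysomal RNA and from -0.06 to 0.01 in cytoplasmic RNA. Lists differed in this. The vesicle coat genes that rose had a median span of 54.1 kb against 26.1 kb in those that fell, and in SF3 and Sm proteins the medians were 29.3 kb and 6.59 kb. The order was the reverse in the ATF4 targets, with 11.3 kb in the 23 that rose against 21.8 kb in the 2 that fell. It was also the reverse in the histone genes, with 0.735 kb in the 6 that rose against 31.7 kb in the 2 that fell. Medians of 2 genes say little about a list. Span is not the length of the mRNA or of the protein, which was not analysed here, and its part in the changes was not tested.

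**Figure D5:**
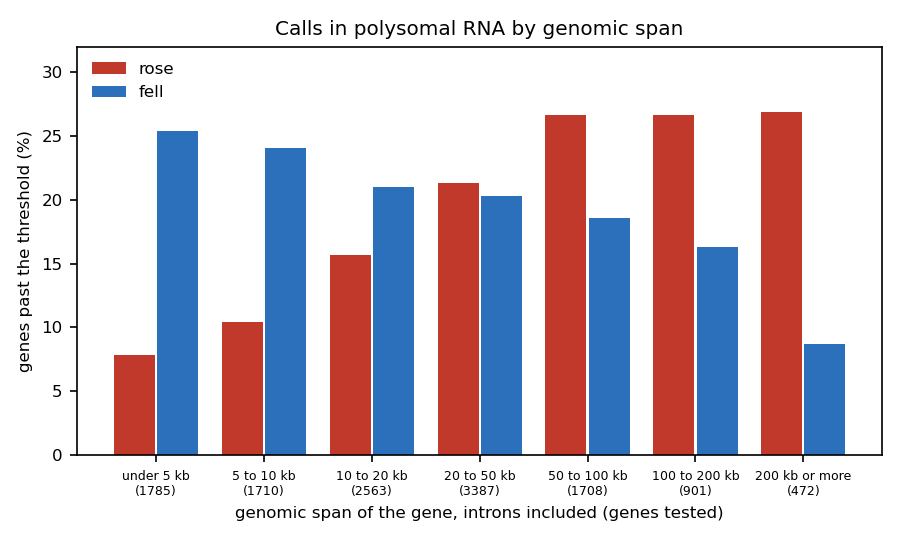
Share of protein-coding genes that rose (red) or fell (blue) in polysomal RNA with 4EGI-1 (vertical axis, percent) by genomic span of the gene (horizontal axis, number of genes tested in parentheses). The share that rose goes from 7.84% under 5 kb to 26.9% at 200 kb or more, and the share that fell from 25.4% to 8.69%.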

How the data were processed

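RNA of 12 mouse samples was measured on single-colour whole-transcript arrays. The authors deposited a table of log2 values for 34760 probe sets, made with RMA according to the submitters' processing notes. Its version and the set of arrays normalised as a batch are not given in the sources used. Of the probe sets 21640 had 1 symbol, 1321 several and 11799 none in the platform annotation, which can be old. Symbols were updated by Entrez number with RefSeq GRCm38.p6, which held 19855 of 19937 genes, and promoter sequences and gene spans come from the same tables. The 954 genes with several probe sets were each represented by their brightest probe set, by the mean of 12 arrays, and genes with a mean under the 40th percentile of all probe sets (6.0) were left out.

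The 6 polysomal arrays were fitted with limma 3.58.1 in R 4.3.3 (lmFit, eBayes without trend), with Benjamini-Hochberg adjustment over 13180 genes and a threshold of 0.05. Cytoplasmic changes come from the same fit of the 6 cytoplasmic arrays, and the difference of changes from all 12. That fit took the 12 arrays as independent and so ignored that both fractions came from the same cultures. With a replicate block by array number, 472 genes differed between fractions instead of 385. The scripts were tested on simulated data. Named are the 12 largest changes in each direction among genes past the threshold whose arrays did not overlap and whose group means were both at least 7 (placeholder symbols, small RNAs, receptor families and pseudogenes left out), up to 4 members per list and direction, and a few genes always named. Slc7a1, Slc1a4, Psat1, Psph, Aldh1l2, Shmt2, Slc7a5, Ap2a1, Ap2a2 and the genes with printed promoters were added after their values were seen. The members and lists were chosen with earlier results of these data known. Beyond the word biological replicate the labels do not describe the cultures, so p-values reflect array-to-array spread, which may be technical, and the small number of arrays limits the precision.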

Additional observations from a re-analysis of the deposited data

Results flagged for a closer look

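For 46 genes named above, the change in polysomal RNA differed from that in cytoplasmic RNA in limma's test of the difference over all 12 arrays (adjusted p under 0.05). The values here are polysomal minus cytoplasmic changes on the log2 scale. The largest positive differences were those of Prpf8 (1.67 ± 0.15, SE, adjusted p = 5.12e-05), Cltc (1.49 ± 0.12, adjusted p = 3.44e-05) and Mybbp1a (1.42 ± 0.21, adjusted p = 0.00129). Among enzymes of nucleotide and folate metabolism the difference was 1.27 in Cad, 1.26 in Mthfd1 and 0.86 in Pfas. In the spliceosome it was 1.23 in Snrnp200, 0.97 in Prpf6, 0.83 in Sf3b3, 0.70 in Sf3b1 and 0.64 in Sf3a1. In the nuclear pore it was 1.04 in Nup205, 1.02 in Nup188 and 0.97 in Nup133, and in vesicle coats 1.10 in Ap2b1 and 1.01 in Copa. Genes of DNA replication and mitosis gave 1.18 in Ckap5, 1.13 in Pole, 0.99 in Rrm1, 0.90 in Top2a, 0.86 in Pola1 and 0.85 in Lig1. Chromatin genes gave 1.09 in H1f2, 1.06 in Smarca4, 0.90 in Chd4 and 0.80 in Dnmt1. Ribosome synthesis gave 1.04 in Polr1a and 1.03 in Heatr1, and tRNA loading 1.07 in Lars and 0.95 in Eprs. Genes for very large proteins gave 0.92 in Atm, 0.86 in Mtor, 0.48 in Trip12 and 0.61 in Vps13b. Translation factors gave 0.74 in Eif5b, 0.63 in Eef2, 0.62 in Eif4g3, 0.61 in Eif3c and 0.45 in Eif3a. The remaining positive differences were 0.66 in Hk2, 0.57 in Slc7a3 and 0.52 in Psmd1.

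In 4 of the 46 genes the polysomal change was the lower of both. The difference was -0.81 ± 0.14 in Mrpl42 (adjusted p = 0.0039), -0.74 in Ndufa5 (adjusted p = 0.0473), -0.73 ± 0.12 in Fth1 (adjusted p = 0.00268) and -0.66 ± 0.12 in Atp5k (adjusted p = 0.00651).

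Of these 46 differences, 7 did not keep their call under all 15 alternative settings. That of Trip12 ended in 12 of them (adjusted p from 0.0522 to 0.12), that of Ndufa5 in 11 (0.0742 to 0.143), that of Eif3a in 10 (0.0517 to 0.077) and that of Eif4g3 in 10 (0.0567 to 0.105). The calls of Mtor (0.0501 to 0.0548) and Slc7a3 (0.0536 to 0.0622) ended in 3 settings each, and that of Hk2 in 1 (0.0539).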

How the results depend on the processing

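The counts of genes that rose or fell stayed within 1.5 times of the values given under every setting tried except that 1599 genes fell when all 12 arrays shared 1 fit. Without each polysomal array in turn, 2037 to 2253 genes rose and 2284 to 2482 fell. The 385 differences between fractions became 242 without the filter on dim genes, 2838 with array quality weights and 200 to 670 without each array in turn. Array numbers did not pair the polysomal control and treated arrays (correlations of same-numbered deviations of 0.08, 0.16 and -0.06). Whether they pair the cytoplasmic arrays, or the arrays of both fractions, was not tested. With the replicate block 2350 genes rose, 2684 fell and 472 differed between fractions. Alternative settings gave 2353 values for 157 genes named above, and no gene past the threshold in the main fit changed its direction. Directions of named genes that did not pass were not compared. The calls of Ap2a1, Ap2a2, Atf5, Bak1, Hmox1, Myc, Notch1, Pck2, Shmt2 and Xpot ended in at least 1 setting, and Rplp0, Ndufs1 and Mcl1 passed in at least 1. Among the differences between fractions, 7 ended in at least 1 setting, as given above, and the other 39 kept their calls in all settings run. The causes were not tested. Planned bins by protein length were not run, and genomic span was used instead, a choice made after the reference was seen. Signals under about 7 limit the sizes of changes from dim genes.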
